A study of Mus musculus with 16 samples.

Results

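Chromatin accessibility at the genes of the Polycomb repressive complexes was examined in ATAC-seq peak lists of activated mouse B cells. In this assay open DNA is tagged by the Tn5 transposase, and a peak marks a stretch with many tagged fragments. The 10 genes, taken by symbol from the GENCODE annotation of GRCm38 (the build that UCSC calls mm10), were Ezh1, Ezh2, Eed, Suz12 and Jarid2 of Polycomb repressive complex 2 (PRC2), Rnf2, Ring1, Bmi1 and Cbx7 of Polycomb repressive complex 1 (PRC1), and Kdm6b. All 10 were found in the annotation. The 72493 peaks of the 8 lists gave 16566 regions once those that overlapped or touched were merged. Of these regions, 22 belonged to the 10 genes. A promoter region was one that overlapped the window between 1000 bp upstream and 100 bp downstream of a transcription start site of the gene, any annotated start counting, and there were 10. The other 12 lay elsewhere in a gene body or within 10000 bp of it.

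The study asked what the loss of Brg1, the ATPase of the BAF (mammalian SWI/SNF) chromatin remodelling complex encoded by Smarca4, does to activated B cells. Splenic B cells of C57BL/6 mice carrying the CD23-Cre transgene were activated in culture with LPS at 10 μg/mL and IL-4 at 20 ng/mL, and 50000 cells went into each library. The sample labels give 72 hours of activation, while the design text of the series gives 96 hours. In the 4 Brg1 fl/+ libraries only 1 allele of Brg1 was floxed, and in the 4 Brg1 fl/fl libraries both were. Both groups carried one copy of the transgene (CD23Cre +/- in the labels), so that Brg1 fl/+ cells can lose 1 allele and are not wild type. CD23-Cre acts in mature B cells, and the share of cells in which it had deleted the gene was not measured in these files. The labels give no age, and nothing in them says whether the 4 libraries of a genotype came from separate mice.

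Polycomb complexes keep genes silent through histone marks. PRC2 methylates histone H3 at its residue K27 through its catalytic subunit Ezh2 or Ezh1, with Suz12 as scaffold, Eed as the subunit that binds the finished mark, and Jarid2 as an accessory subunit that helps to bring the complex to DNA. PRC1 holds the E3 ligases Rnf2 (Ring1b) and Ring1 (Ring1a), which place ubiquitin on histone H2A, together with Bmi1, their partner in the core, and Cbx7, whose chromodomain binds the PRC2 mark. Kdm6b (Jmjd3) removes methyl groups from that lysine. Ezh2 is known to be induced in germinal centre B cells, and BAF and Polycomb complexes are known to act against each other at many genes.

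The sequence at the summit of a region, where the peak is highest, is shown for the promoter regions detected in unequal numbers of libraries (Ezh1, Cbx7 and the second promoter region of Jarid2, which also had the lowest median fold) and for the one with the highest median fold (Rnf2). The regions inside Jarid2 and Kdm6b were added after their values were seen, because the results below turn on them. Each runs 5′ to 3′ in the direction of the gene, up to 100 bp on either side of the summit, and ends before the first annotated base of a UTR. The reference is GRCm38 (RefSeq). Capitals mark matches to one of the motifs named with the motif counts below.
Rnf2 promoter region, chr1:151500956-151501091, minus strand: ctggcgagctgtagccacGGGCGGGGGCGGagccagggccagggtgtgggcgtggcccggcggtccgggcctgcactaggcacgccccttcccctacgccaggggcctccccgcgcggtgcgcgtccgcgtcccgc
Ezh1 promoter region, chr11:101226464-101226573, minus strand: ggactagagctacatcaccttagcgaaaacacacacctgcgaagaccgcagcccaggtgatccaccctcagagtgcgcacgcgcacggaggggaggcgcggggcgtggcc
Cbx7 promoter region, chr15:79932653-79932766, minus strand: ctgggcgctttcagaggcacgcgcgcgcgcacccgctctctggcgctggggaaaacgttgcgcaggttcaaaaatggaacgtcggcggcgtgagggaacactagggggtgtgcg
Jarid2 second promoter region, chr13:44733656-44733856, plus strand: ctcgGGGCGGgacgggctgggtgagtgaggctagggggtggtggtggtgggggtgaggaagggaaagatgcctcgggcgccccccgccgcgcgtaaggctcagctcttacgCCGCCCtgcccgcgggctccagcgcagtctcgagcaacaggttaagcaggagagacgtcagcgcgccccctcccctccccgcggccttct
Jarid2 first intronic region, chr13:44770888-44771088, plus strand: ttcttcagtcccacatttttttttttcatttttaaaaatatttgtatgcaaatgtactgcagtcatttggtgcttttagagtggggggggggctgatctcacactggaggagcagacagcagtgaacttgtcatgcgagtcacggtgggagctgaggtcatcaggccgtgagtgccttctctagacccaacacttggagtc
Jarid2 distal intronic region, chr13:44869532-44869732, plus strand: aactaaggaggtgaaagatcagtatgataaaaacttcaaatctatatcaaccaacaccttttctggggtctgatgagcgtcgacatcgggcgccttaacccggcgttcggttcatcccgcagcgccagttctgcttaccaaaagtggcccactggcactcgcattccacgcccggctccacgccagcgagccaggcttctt
Kdm6b intronic region, chr11:69409501-69409701, minus strand: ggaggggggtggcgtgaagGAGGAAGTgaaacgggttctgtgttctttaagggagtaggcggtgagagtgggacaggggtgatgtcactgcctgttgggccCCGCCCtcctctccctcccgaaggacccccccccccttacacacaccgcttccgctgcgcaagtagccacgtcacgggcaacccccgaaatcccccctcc
The first 4 are rich in CpG, with 18 CpG in the 136 bp of Rnf2, 10 in the 110 bp of Ezh1, 15 in the 114 bp of Cbx7 and 20 in the 201 bp of Jarid2. The first intronic region of Jarid2 held 3 CpG in 201 bp.

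The lists held between 6271 and 14614 peaks. For every peak they state the fold, which is the height of its summit relative to the surrounding background in that library, but no read counts. The depth of a library was read from the number of fragments at each summit, recovered from the fold and the p-value, and the background ranged from 2.76 to 6.89 fragments per kb. A peak needed at least 5 to 8 fragments, depending on the library. A region without a peak was therefore below what could be detected at that depth, and nothing is shown about whether it is closed. The 3 shallowest libraries were Brg1 fl/+ 3, Brg1 fl/fl 2 and Brg1 fl/+ 4, at 3.60 fragments per kb or less, and every other library had 4.14 or more. Over the regions detected in all 8 libraries, fragment counts of Brg1 fl/+ 1 and 2 (chi-square p = 0.271), of Brg1 fl/+ 3 and 4, and of Brg1 fl/fl 1, 3 and 4 differed by no more than sampling noise, while the remaining pairs differed by more. Each such set may be 1 sample sequenced repeatedly, so the difference that passed the test is also given with these libraries averaged and counted as 1 sample. As named at deposit, libraries 1 and 2 of a genotype belong together, and so do 3 and 4. Fits with libraries averaged in pairs use these pairs. The sets of Brg1 fl/+ are the same pairs, but those of Brg1 fl/fl are not, since Brg1 fl/fl 1 and 2 differed (chi-square p = 1.06e-25). Which grouping marks the samples was not tested. The p-values measure the spread between libraries, which may be technical. As a check of the cell type, Pax5 and Ms4a1 had a promoter region in all 8 libraries, Ebf1 in 3 of each genotype and Cd79a in 1 Brg1 fl/+ library. The promoters of Cd79b and Cd22, which also define B cells, had none. None of 5 T cell, 4 myeloid and 3 erythroid marker genes had a promoter region. The Smarca4 promoter was detected in all 8 libraries, which does not test the deletion, since a floxed allele can keep its promoter.

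Accessible promoters were found at 9 of the 10 genes. Kdm6b alone had no promoter region by the GENCODE start sites. For comparison, 47.8% of 21924 protein-coding genes had a promoter region in at least 1 list. Of the 10 promoter regions, 6 were detected in all 8 libraries, namely those of Ezh2, Eed, Suz12, Rnf2 and Ring1 and the main promoter region of Jarid2, against 44.4% of the promoter regions of all protein-coding genes. Brg1 fl/fl libraries detecting a region were outnumbered by Brg1 fl/+ libraries at none, against 34.4% of all promoter regions. There were 3 detected in more Brg1 fl/fl libraries, at Ezh1, Cbx7 and the second promoter region of Jarid2, against 11.3%. Each of these differed by 1 library, and Fisher's exact test on the libraries (two-sided) gave p = 1 for each. The smallest p that 4 libraries against 4 can give is 0.0286.

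**Figure D1:**
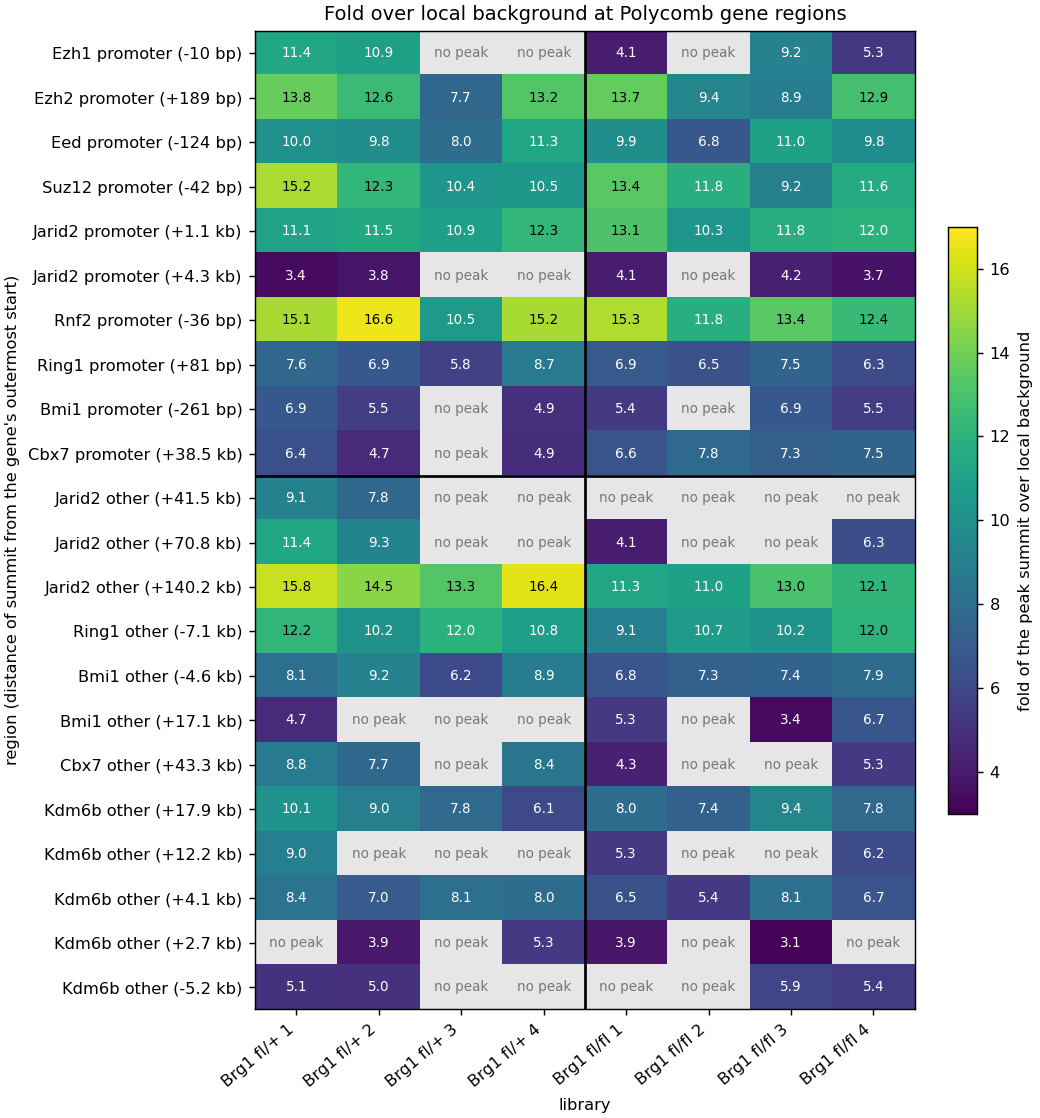
Fold of the peak summit over local background (colour and printed value) in each of the 8 libraries (columns) at the 22 regions of the 10 genes (rows, promoter regions above the line, with the distance of the summit from the outermost start of the gene), where grey cells mark a list without a peak there. The 9 empty cells above the line all lie in Brg1 fl/+ 3, Brg1 fl/+ 4 and Brg1 fl/fl 2, and the row of the Jarid2 region at 41514 bp is empty in all 4 Brg1 fl/fl libraries.

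All 9 missing promoter values fell in the 3 shallowest libraries and 0 in the other 5. Brg1 fl/+ 1, Brg1 fl/+ 2, Brg1 fl/fl 1, Brg1 fl/fl 3 and Brg1 fl/fl 4 each detected 10 of 10 promoter regions. Brg1 fl/+ 3 detected 6, Brg1 fl/fl 2 detected 7 and Brg1 fl/+ 4 detected 8. In the same 3 libraries 55.9%, 54.2% and 65.3% of all promoter regions of protein-coding genes were detected, and in the other 5 between 70.9% and 97.6%. The part of depth in the differences of detection was not tested.

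Among the catalytic subunits of PRC2, Ezh2 had a promoter peak in every library and Ezh1 in 5 of 8. The Ezh2 region (chr6:47594669-47595535, 867 bp) had its summit 189 bp inside the outermost start, in an intron. Its fold was 13.8, 12.6, 7.7 and 13.2 in the Brg1 fl/+ libraries, numbered 1 to 4, and 13.7, 9.4, 8.9 and 12.9 in the Brg1 fl/fl libraries in the same order. The genotypes overlapped over nearly the whole range, and the lowest value was that of the shallowest library, Brg1 fl/+ 3. Genotypes were compared with limma on log2 fold over the 4593 regions detected in all 8 libraries, each library centred on its median and p-values adjusted over all these regions, and a region passed the test at an adjusted p under 0.05. The difference at Ezh2 was 0.14 (SE 0.14) with a 95% interval from -0.14 to 0.41 (limma adjusted p = 0.58). The Ezh1 region (chr11:101226108-101226755, 648 bp) had its summit 10 bp upstream of the start, in the sequence shown above, which held none of the motifs searched. Its fold was 11.4 and 10.9 in Brg1 fl/+ 1 and 2 and 4.1, 9.2 and 5.3 in Brg1 fl/fl 1, 3 and 4, with no peak in Brg1 fl/+ 3, Brg1 fl/+ 4 or Brg1 fl/fl 2. As deposited, every Brg1 fl/fl value present was below both Brg1 fl/+ values, although more Brg1 fl/fl lists held the peak. How many of all regions have such an order as deposited was not counted. After centring the groups overlapped through Brg1 fl/fl 3. In a wider fit over the 7963 regions detected in at least 2 libraries of each genotype, with missing libraries left out, the difference was -0.67 (SE 0.25, 2 against 3 libraries) and did not pass the test (limma adjusted p = 0.088). Over 10 alternatives it ranged from -1.19 to -0.40 and passed in 1, without Brg1 fl/fl 3 (-0.999, limma adjusted p = 0.0207), while without Brg1 fl/fl 1 it was -0.41 (limma adjusted p = 0.329). The libraries with a peak form 1 set of like libraries in each genotype, so that counting each set once leaves 1 sample against 1 and no spread to test.

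The 2 structural subunits, Eed and Suz12, were detected in all 8 libraries with similar values in both genotypes. The Eed region (chr7:89980288-89981336, 1049 bp) was the widest promoter region but for Jarid2, with its median summit 124 bp upstream of the start. It also lies in the promoter window of E230029C05Rik, so that it cannot be given to Eed alone. The summit was inside the gene in Brg1 fl/+ 1 and 2 (89980616 and 89980679) and upstream in the other libraries (89981058 to 89981215). The folds thus come from different positions in the region. Its fold was 10.0, 9.8, 8.0 and 11.3 in Brg1 fl/+ 1 to 4 and 9.9, 6.8, 11.0 and 9.8 in Brg1 fl/fl 1 to 4. The lowest value of each genotype came from one of the shallowest libraries, and the centred difference was 0.13 (SE 0.14, 95% interval -0.16 to 0.42, limma adjusted p = 0.618). Suz12 (chr11:79992701-79993384, 684 bp) had its summit 42 bp upstream of the start. Its fold was 15.2, 12.3, 10.4 and 10.5 in Brg1 fl/+ 1 to 4 and 13.4, 11.8, 9.2 and 11.6 in Brg1 fl/fl 1 to 4. The groups overlapped here too, with a centred difference of 0.14 (SE 0.13, 95% interval -0.12 to 0.39, limma adjusted p = 0.552).

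Jarid2, the longest of the 10 genes at 192170 bp, had 5 regions, more than any other gene but Kdm6b, which also had 5. Its main promoter region (chr13:44730266-44731331, 1066 bp) held the summit 177 bp upstream of the start of a protein-coding transcript and 1123 bp inside the outermost start. The fold was 11.1, 11.5, 10.9 and 12.3 in Brg1 fl/+ 1 to 4 and 13.1, 10.3, 11.8 and 12.0 in Brg1 fl/fl 1 to 4. These values overlapped as deposited. Once centred, all 4 Brg1 fl/fl values lay above all 4 Brg1 fl/+ values, as they did in 8.64% of the regions tested. The difference of 0.24 (SE 0.12, 95% interval 0.0031 to 0.48) was the largest among the member regions in all 8 lists but did not pass the test (limma adjusted p = 0.212). With fragments at the summit in place of the fold it was 0.44 (limma adjusted p = 0.0160), and with libraries within sampling noise averaged 0.25 (limma adjusted p = 0.43). The second promoter region (chr13:44733580-44733955, 376 bp), whose summit lies 284 bp upstream of the start of a processed transcript, was the weakest of all promoter regions here. Its fold was 3.4 and 3.8 in Brg1 fl/+ 1 and 2 and 4.1, 4.2 and 3.7 in Brg1 fl/fl 1, 3 and 4. Its local background was high, between 4.28 and 7.19 fragments at the summit, where 19 to 27 fragments were counted. The difference of 0.42 (SE 0.21, 2 against 3 libraries) did not pass the test in the wider fit (limma adjusted p = 0.193).

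**Figure D2:**
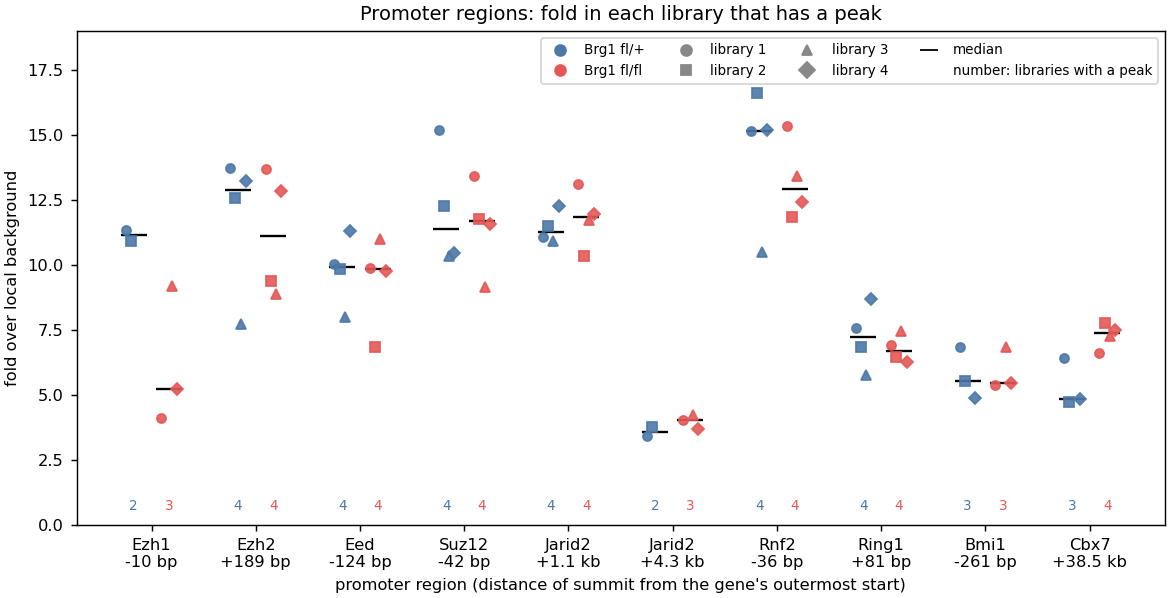
Fold over local background (vertical axis) at the 10 promoter regions (horizontal axis) in each library that has a peak there, with Brg1 fl/+ in blue, Brg1 fl/fl in red, a symbol for each library number, a black line at the median and the number of libraries with a peak along the bottom. Rnf2 reaches 16.6, the second Jarid2 region stays at 4.2 or less, and at Cbx7 the 4 Brg1 fl/fl points from 6.6 to 7.8 lie above the 3 Brg1 fl/+ points from 4.7 to 6.4.

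The ligases of PRC1 had promoter peaks in every library. Rnf2 (chr1:151500457-151501280, 824 bp) had the highest median fold of the 10 promoter regions, 14.3, and the median of its rank by fold was percentile 84.9 of the promoter regions of its library. The fold was 15.1, 16.6, 10.5 and 15.2 in Brg1 fl/+ 1 to 4 and 15.3, 11.8, 13.4 and 12.4 in Brg1 fl/fl 1 to 4, and the region also lies in the promoter window of Gm36527. The centred difference was 0.10 (SE 0.11, 95% interval -0.11 to 0.31, limma adjusted p = 0.601). Ring1 (chr17:34024335-34024896, 562 bp), shared with the window of Mir219c, had its summit in an exon 81 bp inside the start. Its fold of 7.6, 6.9, 5.8 and 8.7 in Brg1 fl/+ 1 to 4 and 6.9, 6.5, 7.5 and 6.3 in Brg1 fl/fl 1 to 4 was below that of Rnf2 in each of the 8 libraries. The centred difference between genotypes was 0.12 (SE 0.16, 95% interval -0.21 to 0.45, limma adjusted p = 0.69).

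Bmi1 had a weak promoter peak with equal detection, 3 libraries of each genotype. The region (chr2:18676497-18677192, 696 bp) had its summit 261 bp upstream of the start. The fold was 6.9, 5.5 and 4.9 in Brg1 fl/+ 1, 2 and 4 and 5.4, 6.9 and 5.5 in Brg1 fl/fl 1, 3 and 4. The values of the genotypes covered nearly the same range, and the difference was 0.25 (SE 0.21) in the wider fit (limma adjusted p = 0.469).

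Cbx7 had the one promoter region whose difference between genotypes passed the test in the wider fit. Its outermost annotated start had no peak. The promoter region (chr15:79932418-79932838, 421 bp) lies at inner starts of protein-coding transcripts, with the summit 38453 bp inside the outermost start, in an exon and 14 bp upstream of the nearest start. The fold was 6.4, 4.7 and 4.9 in Brg1 fl/+ 1, 2 and 4, with no peak in Brg1 fl/+ 3, and 6.6, 7.8, 7.3 and 7.5 in Brg1 fl/fl 1 to 4. All 4 Brg1 fl/fl values were above all 3 Brg1 fl/+ values, also as deposited. How many of all regions with a list missing show such an order was not counted. In the wider fit the difference was 0.74 (SE 0.20, 3 against 4 libraries), which is a ratio of 1.67, and it passed the test (limma adjusted p = 0.018) as 2.84% of the 7963 regions did in this direction. It was the only member region of 19 in that fit that passed, beside 632 of the 7963 regions in either direction. The call was kept under 8 of 12 alternatives and was lost under 4, namely without Brg1 fl/+ 2 (0.65, limma adjusted p = 0.100), with the replicate number as a block (0.76, limma adjusted p = 0.0891), with libraries averaged in pairs (0.75, limma adjusted p = 0.0526) and with libraries within sampling noise averaged (0.85, limma adjusted p = 0.0848). The fit leaves out the 1 library in which the region was not detected.

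Inside Cbx7, a region in an intron (chr15:79927651-79928021, 371 bp), 4651 bp inside the nearest start, gave values of the opposite order. Its fold was 8.8, 7.7 and 8.4 in Brg1 fl/+ 1, 2 and 4 and 4.3 and 5.3 in Brg1 fl/fl 1 and 4. Both Brg1 fl/fl values were below all 3 Brg1 fl/+ values, an order that was not counted over all regions. The difference of -0.58 (SE 0.23, 3 against 2 libraries) did not pass the test (limma adjusted p = 0.107), and whether it differs from that at the promoter was not tested. The map of regions along the genes shows these 2 regions side by side.

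**Figure D3:**
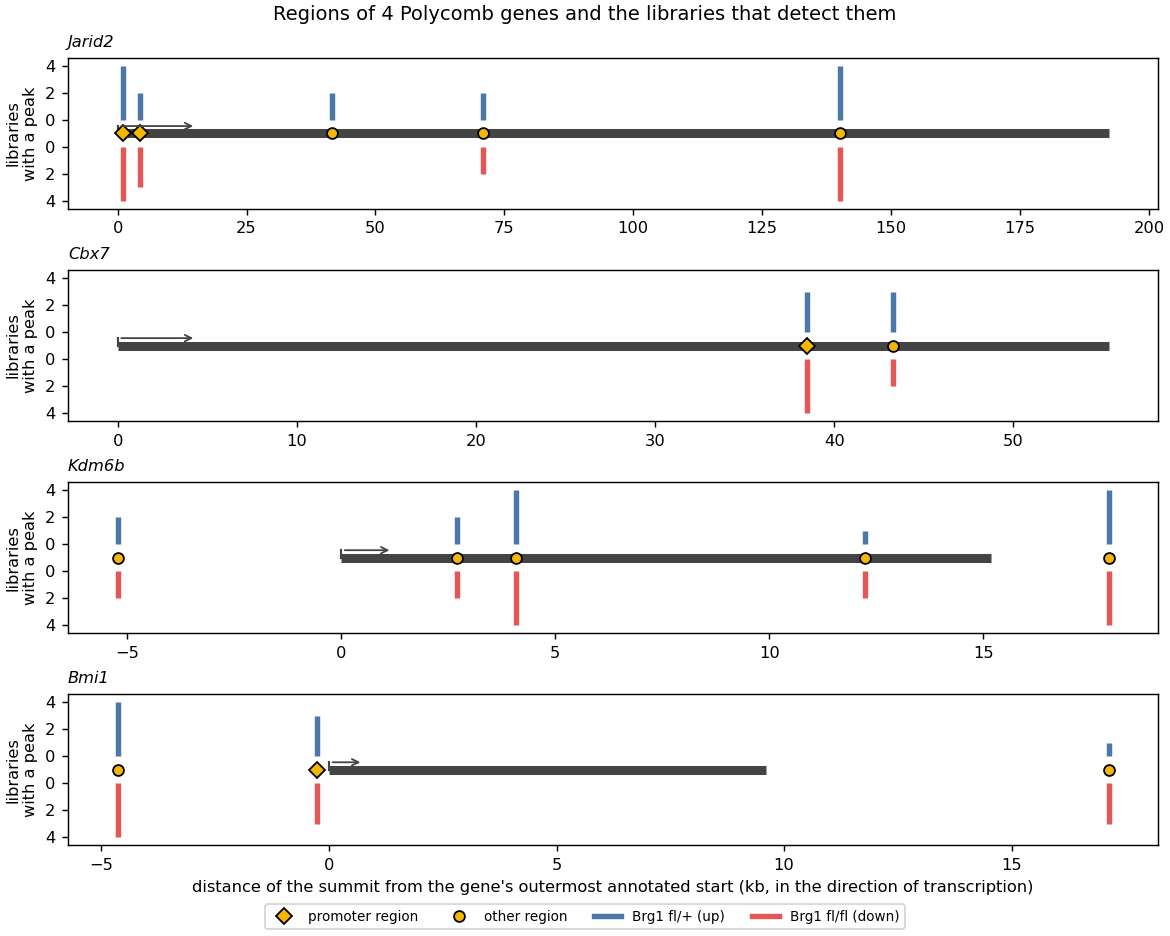
Position of the regions (yellow, diamonds for promoter regions and circles for others) along Jarid2, Cbx7, Kdm6b and Bmi1 (grey bars, horizontal axis in kb from the outermost annotated start), with the number of Brg1 fl/+ (blue, upward) and Brg1 fl/fl libraries (red, downward) that have a peak. No Cbx7 region lies at its outermost start, and the Jarid2 region at 41514 bp has 2 blue and 0 red libraries.

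Outside promoters, 12 regions were examined. Of these, 5 were detected in all 8 libraries, against 23.9% of such regions of all protein-coding genes. There were 2 detected in fewer Brg1 fl/fl libraries, in introns of Jarid2 and Cbx7, against 52.2%, and 2 in more, against 15.3%. The remaining 3 were detected in equal numbers below 8. Of the 30 missing values, 19 were in the 3 shallowest libraries.

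The introns of Jarid2 held 3 regions. The first (chr13:44770869-44771094, 226 bp) was the only member region without a peak in any library of a genotype, here Brg1 fl/fl. Its fold was 9.1 and 7.8 in Brg1 fl/+ 1 and 2, and the other 6 lists had no peak. Brg1 fl/+ 1 and 2 held the longest lists, with 14614 and 11283 peaks. They detected 87.8% and 65.1% of the regions outside promoters of all protein-coding genes, against 33.0% to 50.5% in the other lists. How many of all regions have a peak in these lists alone was not counted. Detection in 2 against 0 libraries gave p = 0.429 in Fisher's exact test (two-sided). The second (chr13:44800013-44800575, 563 bp) had a fold of 11.4 and 9.3 in Brg1 fl/+ 1 and 2 and of 4.1 and 6.3 in Brg1 fl/fl 1 and 4. The difference of -0.76 (SE 0.26, 2 against 2 libraries) did not pass the test in the wider fit (limma adjusted p = 0.062), and over 8 alternatives it ranged from -1.19 to -0.54 without passing. Both regions were poor in CpG, with an observed over expected ratio of 0.252 and 0.254. The libraries that detected them differed, within a genotype, by no more than sampling noise. A genotype in which a region was detected may therefore hold only 1 sample with the peak.

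The third region of Jarid2 (chr13:44869571-44870023, 453 bp), 140158 bp inside the outermost start, had the highest median fold of the regions outside promoters, 13.1. Its fold was 15.8, 14.5, 13.3 and 16.4 in Brg1 fl/+ 1 to 4 and 11.3, 11.0, 13.0 and 12.1 in Brg1 fl/fl 1 to 4. All Brg1 fl/fl values were below all Brg1 fl/+ values as deposited. After centring they overlapped, and the difference was -0.14 (SE 0.11, 95% interval -0.35 to 0.08, limma adjusted p = 0.455). Among the centred values of all regions tested, 4.64% had all Brg1 fl/fl values below all Brg1 fl/+ values. The share in that order as deposited was not counted. The region is not unique in the genome. A search of GRCm38 found 18 other stretches on the chromosomes that matched at least 100 bp of it at 90% identity or more, the longest over 437 bp at 95.4%, and 6 of the 18 also lay in regions of these lists. Its reads can therefore come from other copies. Its peak was 445 to 453 bp wide in every list. No other member region but one had such a copy on another part of the chromosomes.

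Kdm6b had 5 regions, none at a GENCODE start. A region in an intron (chr11:69409263-69409960, 698 bp), 4074 bp inside the start, was detected in all 8 libraries and lies in no promoter window of another gene. The fold was 8.4, 7.0, 8.1 and 8.0 in Brg1 fl/+ 1 to 4 and 6.5, 5.4, 8.1 and 6.7 in Brg1 fl/fl 1 to 4. The genotypes overlapped, and the centred difference was -0.05 (SE 0.16, 95% interval -0.38 to 0.28, limma adjusted p = 0.876). The sequence shown above held a match to the PU.1 motif and one to the SP/KLF motif. A second region in an intron (chr11:69410705-69411542) had a fold of 3.9 and 5.3 in Brg1 fl/+ 2 and 4 and of 3.9 and 3.1 in Brg1 fl/fl 1 and 3, and it was missing from the longest list, Brg1 fl/+ 1. The region upstream (chr11:69418654-69419078) had a fold of 5.1 and 5.0 in Brg1 fl/+ 1 and 2 and of 5.9 and 5.4 in Brg1 fl/fl 3 and 4. These last regions were weak in both genotypes. By the start sites of the RefSeq annotation, which places the outermost start of Kdm6b at position 69420367 in place of 69413675 and gives it 10 starts, these 3 regions were promoter regions and the promoter regions of the other 9 genes were the same 10. The absence of a promoter region at Kdm6b thus rests on the annotation.

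The remaining regions of the members lie in promoter windows of other genes. The region 7065 bp upstream of Ring1, at the starts of Rxrb, Slc39a7 and Gm20427, was detected in all 8 libraries with a fold from 9.1 to 12.2. The region 4645 bp upstream of Bmi1, at the start of Commd3, had a fold from 6.2 to 9.2 in all 8. Downstream of Kdm6b, the region at the starts of Cyb5d1 and Naa38 had a fold from 6.1 to 10.1 in all 8, and a stretch of 262 bp on the same chromosome matched it at 95.8% identity. None of these 3 passed the test (limma adjusted p from 0.45 to 0.787). The region downstream of Bmi1 at the start of Spag6 was detected in 1 Brg1 fl/+ and 3 Brg1 fl/fl libraries (Fisher's exact test, two-sided, p = 0.486). Its fold was 4.7 in Brg1 fl/+ 1 and 5.3, 3.4 and 6.7 in Brg1 fl/fl 1, 3 and 4. The region of Kdm6bos, in an intron of Kdm6b, was detected in 1 Brg1 fl/+ and 2 Brg1 fl/fl libraries. The fold there was 9.0 in Brg1 fl/+ 1 and 5.3 and 6.2 in Brg1 fl/fl 1 and 4.

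Of the 22 regions, 11 were detected in all 8 libraries and entered the fit with the 4593 regions tested. None of the 11 passed the test, against 5.46% of all regions (251, of which 152 were higher and 99 lower in Brg1 fl/fl). At an unadjusted p under 0.05 there was 1, the main promoter region of Jarid2, beside 1060 of the 4593 regions tested. With centring, 9 of the 11 differences were above 0, with a median of 0.12 against 0.03 over all regions tested, and without centring 9 of the 11 were below 0, since the median log2 fold of the Brg1 fl/fl libraries was lower by 0.20 (difference -0.20). Of the 9 above 0 with centring, 7 changed sign without it, while the main Jarid2 promoter region (0.0386) and the region downstream of Kdm6b (0.0012) stayed above 0. Over all regions the split of the calls did too, with 122 higher and 132 lower after quantile normalization and 7 higher and 155 lower without centring. At Cbx7 the order of the genotypes was the same with and without centring.

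**Figure D4:**
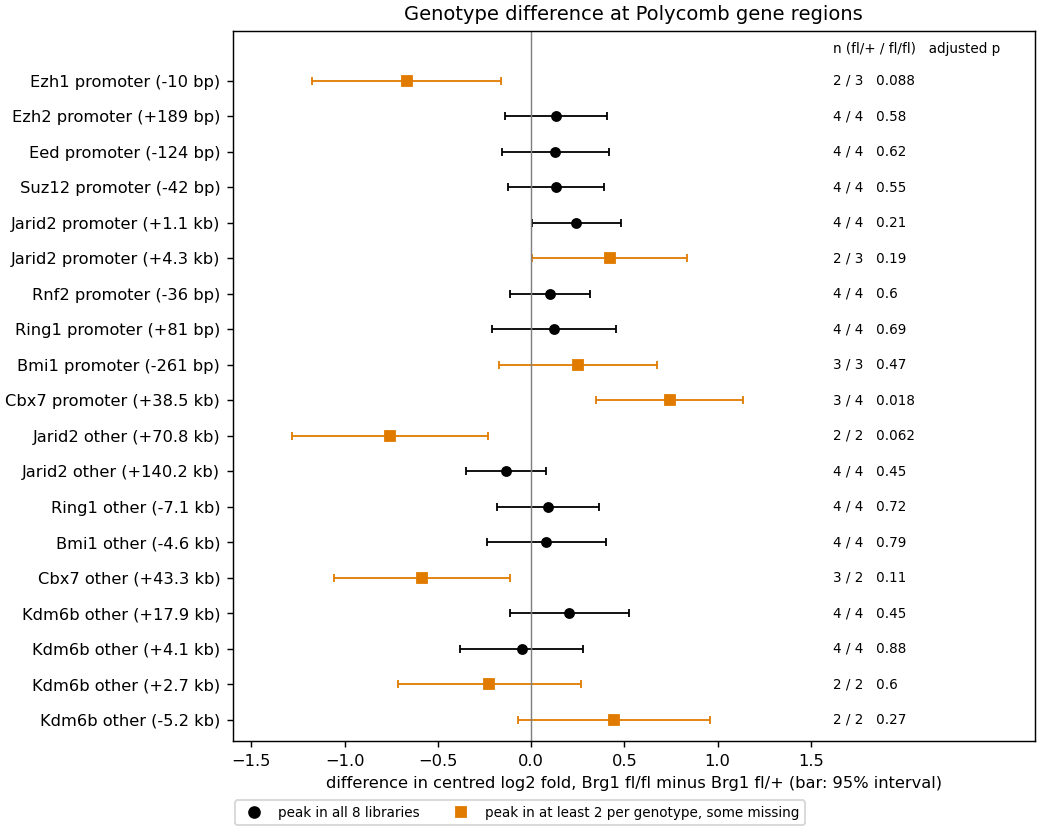
Difference in centred log2 fold between genotypes (horizontal axis, Brg1 fl/fl minus Brg1 fl/+, with its 95% interval) at the 19 regions detected in at least 2 libraries of each genotype, with black circles for peaks in all 8 libraries and orange squares where lists lack the peak, and the number of libraries and the limma adjusted p on the right. The black circles lie between -0.14 and 0.24, and the Cbx7 promoter region at 0.74 is the only one with an adjusted p under 0.05.

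By median fold over the libraries of both genotypes that detect them, the promoter regions ranked from Rnf2 (14.3) through Ezh2 (12.7), Suz12 (11.7), the main Jarid2 region (11.6), Eed (9.9), Ezh1 (9.2), Ring1 (6.9), Cbx7 (6.6) and Bmi1 (5.5) to the second Jarid2 region (3.8). The ranges over libraries of each pair of neighbours in this order overlapped, except for the last pair, where Bmi1 was at 4.9 or more and the second Jarid2 region at 4.2 or less. The order also differed by genotype, since in Brg1 fl/fl alone the medians were 7.39 for Cbx7, 6.70 for Ring1 and 5.25 for Ezh1. Relative to the promoter regions of the same library, the median rank by fold was at percentile 68.0 for Ezh2, 66.7 for the main Jarid2 region, 65.7 for Suz12, 23.0 for Ring1, 22.4 for Cbx7 and 10.5 for Bmi1. Eed was near the middle, with a median at percentile 47.9. Ezh1 was at 52.8 and 48.1 in Brg1 fl/+ 1 and 2 and at 48.4 in Brg1 fl/fl 3, but at 2.35 and 7.72 in Brg1 fl/fl 1 and 4. These ranks set Rnf2 apart from Ring1, Cbx7 and Bmi1, the other PRC1 genes among the members, whose promoters were among the weaker ones. Further PRC1 genes, from the list described below, were not ranked in this way, and their median folds varied. In Brg1 fl/+ and Brg1 fl/fl these were 13.9 and 14.8 at Pcgf5 and 13.1 and 13.7 at Cbx8, near Rnf2 at 15.2 and 12.9. They were lower at Cbx2 (10.9 and 6.8) and Phc3 (9.2 and 6.5).

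The 10 promoter regions had a median width of 690 bp, a GC content of 70.9% and a CpG observed over expected ratio of 0.872, beside 605 bp, 65.4% and 0.821 over 9779 promoter regions of protein-coding genes. Motifs were searched on both strands within 100 bp of the summit, and a match is only a match of letters. SP/KLF (GGGCGG) was found in 6 of the 10, at Suz12, both Jarid2 regions, Rnf2, Ring1 and Bmi1, beside 68.1% of 9777 promoter regions. NF-Y (CCAAT) was found in 3, at Ezh2, Suz12 and the main Jarid2 region, beside 32.2%. E2F (TTCCCGC) was found only at Rnf2, beside 7.28%, and the E-box (CACGTG) only at Bmi1, beside 8.83%. The E2F match at Rnf2 lies past the end of the sequence shown above, which stops before the UTR. No promoter region here held ETS (CCGGAAG, 17.5% of all promoter regions), NRF1 (GCGCATGC, 5.80%), CREB (TGACGTCA, 3.53%), YY1 (AAGATGGC, 4.28%), AP-1 (TGANTCA, 2.28%) or PU.1 (GAGGAAGT, 2.17%) in this window. Outside promoters, the PU.1 letters were found in the second intronic region of Jarid2 and in the Kdm6b intronic region shown above.

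Further Polycomb genes were compared as a list of 27, which holds other subunits and partners of both complexes, the H3K27 demethylase Kdm6a and the H2A deubiquitinase Bap1 with its partner Asxl1. Of these, 26 had a promoter region and Pcgf2 had none. The promoter region found in most libraries was taken for each, and it was detected in all 8 libraries at 17 genes, in fewer Brg1 fl/fl libraries at 6 (Mtf2, Pcgf6, Scmh1, Yaf2, Bcor and L3mbtl2) and in more at 3 (Epop, Kdm2b and Kdm6a). These counts take 1 region a gene, the best detected, so that the shares of all promoter regions given above are on another basis and the counts are not read against them. Pcgf6, a core partner of a variant PRC1, was detected in 4 Brg1 fl/+ libraries and 1 Brg1 fl/fl library. Its median fold was 5.7 in the Brg1 fl/+ libraries, and its fold in the Brg1 fl/fl library was higher, at 7.3. Scmh1, Bcor and L3mbtl2 were detected in 2 Brg1 fl/+ libraries and 0 Brg1 fl/fl libraries. How many of all promoter regions have such splits was not counted. Of the 17 in the fit, none passed the test, and 2 had an unadjusted p under 0.05, Rybp, a PRC1 subunit, at -0.30 (SE 0.12, limma adjusted p = 0.121) and Phc1, a Polyhomeotic subunit, at 0.22 (SE 0.11, limma adjusted p = 0.212). Over all 4593 regions tested, 1060 had an unadjusted p under 0.05.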

How the data were processed

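ATAC-seq was measured in 8 libraries of 50000 cells. Alignment by the authors was to mm10 (Bowtie2, paired ends), and each library had its own MACS2 peak calling. Versions, options and the handling of duplicates and of the transposase shift are not given in the sources used here. The deposited lists hold for each peak the fold, a ratio of summit fragments plus 1 over local background plus 1. The deposited lists also hold the −log10 p-value and the −log10 q-value of the summit and its distance from the start of the peak. They hold no read counts, so the authors' test of coverage with DESeq2 was not repeated. The 8 RNA libraries of the series were not analysed here.

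Peaks that overlapped or touched were joined, and detection of a region in a library required 1 bp of overlap with any of its peaks. Start sites came from GENCODE annotation of the same build. Fragments were recovered from fold and p-value with a tolerance of 0.002 in −log10 p. The log2 fold of the highest peak was tested with limma 3.58.1 in R 4.3.3 (eBayes with trend, Benjamini-Hochberg adjustment), after the script was tested on simulated data. Copies were searched with blastn 2.17.0 (at least 100 bp and 90% identity), and other steps used Python 3.11.15, pandas 2.3.3 and scipy 1.17.1. Groups were taken from the sample labels. Intervals and floors cover the spread between these libraries or counting error only.

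The members, the list of 27 further Polycomb genes, the markers and the motifs were chosen with earlier results of these data known. All regions of the 10 members are named. Items of the lists that are withheld are not reported here. Other genes are named where they share a region or, on the list, where they were not detected in all libraries or had a small p-value. The RefSeq start sites, the fits without centring and with averaged libraries, and the alternatives of the wider fit were chosen after seeing the data.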

Additional observations from a re-analysis of the deposited data

How the results depend on the processing

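Of 196 fits of the 11 member regions detected in all 8 libraries under an alternative, 186 kept the direction and the side of the threshold, 9 had the opposite sign and 1 passed the test, the main Jarid2 promoter region with fragments at the summit. Without centring the differences were -0.0672 at Ezh2, -0.073 at Eed, -0.0673 at Suz12, -0.10 at Rnf2, -0.0806 at Ring1, -0.11 at the region upstream of Ring1 and -0.12 at the region upstream of Bmi1, since centring adds the same amount to each. The Kdm6b intronic region was at 0.0134 with fragments and between -0.1405 and 0.0587 with a library left out, the highest without Brg1 fl/+ 3. Among member promoter regions, 1 passed with fragments, 1 in the wider fit, and 0 to 1 with a library left out (1 without Brg1 fl/+ 3, which lets Cbx7 into the fit).

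The 251 regions called became 136 without the trend, 560 with fragments, 632 in the wider fit, 73 with libraries averaged in pairs, 162 without centring and 34 with libraries within sampling noise averaged. Leaving out a library gave 78 to 418, namely 104, 78, 418 and 138 without Brg1 fl/+ 1 to 4 and 119, 201, 160 and 167 without Brg1 fl/fl 1 to 4. The cause was not tested. Deviations of same-numbered libraries had r from -0.0908 to 0.0122, within the range of the other pairs across genotypes (-0.108 to 0.101). With values this alike, whether the numbers pair the samples cannot be told. The replicate block gave 215 calls and, of the member calls, ended that of Cbx7.

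With −log10 q of at least 10, promoter regions detected in all 8 libraries fell to 3 and those in fewer Brg1 fl/fl libraries numbered 2, and other regions numbered 2 in all 8 and 5 in fewer. With −log10 q of at least 5, other regions numbered 4 in fewer and 4 in more. With 50% of the region covered, promoter regions numbered 3 in all 8 and 6 in more, and other regions 2 in all 8 and 6 in more. Other regions in fewer numbered 1 with libraries joined in pairs, and those in more 1 with lists shortened to equal length. With a library left out the groups are unequal in size, and the share of the libraries of each genotype that detected a region was compared. By that share, 0 to 1 promoter regions were in fewer (1 without Brg1 fl/+ 3 and without Brg1 fl/fl 1, 3 or 4), and other regions numbered 2 to 5 in fewer and 2 to 5 in more. Leaving out 1 library alone thus moved these counts, in part through the unequal group sizes. Without Brg1 fl/+ 3, the Bmi1 promoter region was still detected in 3 libraries of each genotype and yet counted as fewer.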
